A study of Homo sapiens with 2 samples.

Results

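Peaks on 5 long non-coding RNAs (lncRNAs) are described here: NORAD, OIP5-AS1, MALAT1, NEAT1 and TUG1. Each peak was taken by the Ensembl gene identifier in its name, matched to the gene symbol in GENCODE 29. This gave 242 of 210205 listed peaks, 127 in replicate 1 and 115 in replicate 2, on 5 of the 20048 genes with a peak. All 242 peaks lay in exons. The data were 2 small-RNA libraries of a single group labelled TRACER, a word the labels do not explain. Both were made from cytoplasmic RNA of HEK293T, a common human cell line of embryonic kidney origin, kept with doxycycline at 3 ug/mL for 24 hours. The series set out to map stretches of RNA associated with CCR4-NOT, a deadenylase complex that shortens poly(A) tails. Doxycycline usually serves to induce a transgene, and no such gene is named in the labels. There was no untreated, input or control library, so the values carry no background and no comparison between conditions was possible. Without an input, more RNA and more reads per RNA molecule cannot be told apart. Nothing in the labels ties the replicates to separate cultures, and their spread may therefore be technical.

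lncRNAs are transcripts with no long open reading frame that act as RNA. NORAD is an abundant cytoplasmic lncRNA built from diverged repeats, and it is known for holding Pumilio proteins through many short elements. Pumilio proteins bind UGUANAUA and recruit CCR4-NOT to their target mRNAs. OIP5-AS1, the human counterpart of the lncRNA Cyrano, is mainly cytoplasmic and carries a conserved, extensively paired site for the microRNA miR-7. MALAT1 and NEAT1 stay in the nucleus, MALAT1 in speckles and NEAT1 as the scaffold of paraspeckles. TUG1 is found in both compartments.

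The lists held 100792 and 109413 peaks, and the peak reads summed over distinct positions were 1585456 in replicate 1 and 1663919 in replicate 2. The median peak held 6 reads in either library and the smallest held 3. A peak's read number is not normalised, and a read can be counted in neighbouring peaks or at several loci, so sums over peaks are not depth. Of 7 genes taken as HEK293T markers, 6 had exonic peak reads in both libraries, led by VIM and IGF2BP1. The weakest of the 6 had only 4 and 11 reads, and the remaining gene had 0. Of 7 genes taken as markers of other cell types, 0 had exonic peak reads in both libraries. Of 12 nuclear RNAs, 7 had exonic peak reads in both libraries, led by RPPH1 (7634 and 7444 reads per kb), the RNA of RNase P, and RMRP (6985 and 3672). Of 13 cytoplasmic RNAs found in the annotation, 12 did, led by the signal recognition particle RNAs RN7SL2 (11070 and 17663) and RN7SL1 (13010 and 11201). The named genes are the strongest of each list. No share over all genes was computed beside these counts, so they are a description only.

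NORAD (ENSG00000260032) is a single-exon gene of 5339 nt at chr20:36045622-36050960 on the minus strand of GRCh38, and its Pumilio elements are shown first because they are the binding sites the transcript is known for. The transcript held 15 matches to UGUANAUA. The 7 that lay wholly under peaks in both libraries are shown with 10 nt on each side. Names give the start in the transcript, counted from its 5′ end, and capitals mark the element.
NORAD 761: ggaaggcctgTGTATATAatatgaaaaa
NORAD 1442: tacttatctgTGTATATAgtgtacataa
NORAD 1451: gtgtatatagTGTACATAaaggacagac
NORAD 2039: tgttttgctcTGTATATAgtatatataa
NORAD 2466: aataacacttTGTAAATAgcttttaaaa
NORAD 3275: tactgtgctgTGTATATAgtgtatataa
NORAD 3284: gtgtatatagTGTATATAagcggacata
The other 8 elements had no peak over them in either library, and they are shown because several differ little from the first set.
NORAD 1140: ctcactactgTGTATATAgttgacaatg
NORAD 1241: aatcacatttTGTAAATAcctttttgtt
NORAD 1825: aataccacttTGTAAATAtctttttgct
NORAD 2639: tttgctatacTGTATATAttgtatatat
NORAD 2648: ctgtatatatTGTATATAtaacggacaa
NORAD 2972: aaccctactgTGTATATAgcggacaaac
NORAD 3593: aatgctactgTGTATATAatggaaaact
NORAD 4599: ttagcctattTGTAAATAcctttgttat

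The 7 covered elements, of 15, made 46.7% (exact 95% binomial interval 21.3 to 73.4, counting error only), and the same 7 were covered in each library. Peaks of both libraries covered 14.5% of the transcript's bases. Among the other lncRNA genes of at least 1 kb with exonic peaks in both libraries, 20 of 158 elements (12.7%) were covered in both, where such peaks covered 1.96% of the bases. When the near-identical copies of NORAD described below were also set aside, these values were 12 of 121 elements (9.92%) and 1.88% of the bases. In both sets, as in NORAD, the share of elements was above the share of bases, and as a ratio it was further above than in NORAD. The elements share a transcript and are not replicates, and neighbouring pairs at 1442 and 1451 and at 3275 and 3284 share their peaks. By letters, 5 of 10 UGUAUAUA, 1 of 4 UGUAAAUA and the 1 UGUACAUA were covered. The same letters reversed, AUANAUGU, occurred 3 times in NORAD with 0 covered in both libraries (interval 0 to 70.8%). So few sites cannot tell the reversed letters from the element. The shorter core UGUA, counted with the cores of the 15 elements, occurred 51 times with 9 covered in both (17.6%). The cores of the 7 covered elements are among these 9, so this share is not a separate comparison.

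The element at 2466 lay at chr20:36048488-36048495 under the strongest of these peaks, with 86 reads in replicate 1 and 114 in replicate 2, in replicate 2 across 2 adjoining peaks. The element at 2039 (chr20:36048915-36048922) had 58 and 86 reads. The elements at 3275 and 3284 had 54 and 40 reads. At 761 the values were 38 and 49 reads, and at 1442 and 1451 they were 29 and 53. Replicate 2 was higher at 5 of the 7 and lower at the pair of 3275 and 3284. The other 4 lncRNAs gave little cover of this kind. MALAT1 held 0 Pumilio elements, NEAT1 6 and TUG1 2 with none under a peak, and OIP5-AS1 held 1, under a peak of 6 reads in replicate 1 only.

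NORAD carried 30 peaks in each library, with 1318 reads in replicate 1 and 1850 in replicate 2. Per kb of exon this was 247 and 347 reads. A NORAD peak held 13 to 98 reads (median 38) in replicate 1 and 30 to 135 (median 50.5) in replicate 2, against the median of 6 over all peaks. All 60 NORAD peaks had a peak-caller p-value at or under 1e-05, a level reached by 33.5% and 36.1% of all listed peaks. In the order of reads per kb among 385 lncRNA genes of at least 1 kb with exonic peaks in both libraries, NORAD stood 3rd in each. That place counts all NORAD peaks, also those whose summit sequence occurs in other genes, described below. It was not computed without them.

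A peak was counted as found in both libraries when at least 1 nt of it was shared, strand included, with a peak of the other replicate. Over all listed peaks this held for 60.0% in replicate 1 and 55.5% in replicate 2, and over other lncRNAs for 59.3% and 56.4%. For NORAD it held for 28 of 30 peaks (93.3%) and 26 of 30 (86.7%). Strong peaks were found again more often whatever the gene: with 30 or more reads the share over all peaks was 98.4% and 98.2%, and over the 5 lncRNAs it was 97.4% and 90.5%.

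The 3 NORAD regions with the most reads in their strongest peak are shown as 51 nt around the summit, with no capitals because they hold no Pumilio element or searched microRNA site.
NORAD summit 1030: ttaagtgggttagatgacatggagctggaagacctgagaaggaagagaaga
NORAD summit 2527: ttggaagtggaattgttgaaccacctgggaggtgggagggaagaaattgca
NORAD summit 1195: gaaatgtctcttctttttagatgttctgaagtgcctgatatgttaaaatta
The first, at chr20:36049891-36049956, held 98 and 134 reads. The second, at chr20:36048410-36048537, was a run of 3 adjoining peaks per library whose strongest held 92 and 135 reads. The third, at chr20:36049736-36049787, held 80 and 133. Each was higher in replicate 2, as were 20 of the 24 NORAD regions found in both libraries. The element at 2466 lay inside the second region, while the other 2 contained none.

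NORAD's repeat units were located from its sequence alone, by a profile built from a seed window of 300 nt. This gave 13 matches from position 737 to 4662, of 110 to 259 nt, which cover 54.1% of the transcript. They contained all 15 Pumilio elements, as did units from a seed of 400 nt, while units from a seed of 200 nt contained 11. Summits inside them carried 69.7% of the NORAD peak reads in replicate 1 and 64.8% in replicate 2, and summits between them another 22.8% and 31.5%. The part before the first unit carried 7.51% and 3.68%, and the 677 nt after the last unit carried 0 reads. Per kb, the units had 318 and 415 reads and the stretches between them 290 and 562, so the order of these parts differed between the libraries. The share depended on how the units were drawn: it was 38.2% and 36.1% with a seed of 200 nt, which covers 38.7% of the length, and 89.6% and 90.9% with a seed of 400 nt, which covers 67.7%.

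The units were far from alike. Unit 6 (2286 to 2528) had 257 and 369 reads over 4 peaks per library. In replicate 1 unit 9 (3208 to 3449) came next, with 134 reads, but it had only 78 in replicate 2. Unit 2 (1055 to 1305) had 112 and 177 reads, unit 1 (737 to 980) 109 and 136, and unit 5 (1969 to 2224) 91 and 138. As drawn from the 300 nt seed, units 8, 10 and 12 had no summit in either library, although units 8 and 10 each hold 1 Pumilio element. This depends on the unit edges, as summits at 2879 and 2880 (30 and 33 reads) lay just before unit 8, which starts at 2884. With a seed of 400 nt, unit 8 (2878 to 3207) took them in. Unit 12 (4160 to 4404) then held a replicate 2 summit at 4402. Units 10 and 11 match complementary ends of the profile and lie on either side of an interspersed repeat at 3645 to 3953, a sequence matched in up to 3472 genes. Only summits inside these units have a place in the profile, and some summits lay just before a unit's start. Within the profile, no summit fell on positions 1 to 65, and positions 196 to 260 had the most reads, 414 and 565, over 7 and 8 units. The Pumilio elements sat mostly near positions 85 to 99 and at 194 of the profile. The most heavily read stretch lay downstream of the first group. Elements starting at 194 reach into that stretch, so it does not place the reads upstream or downstream of them.

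**Figure D1:**
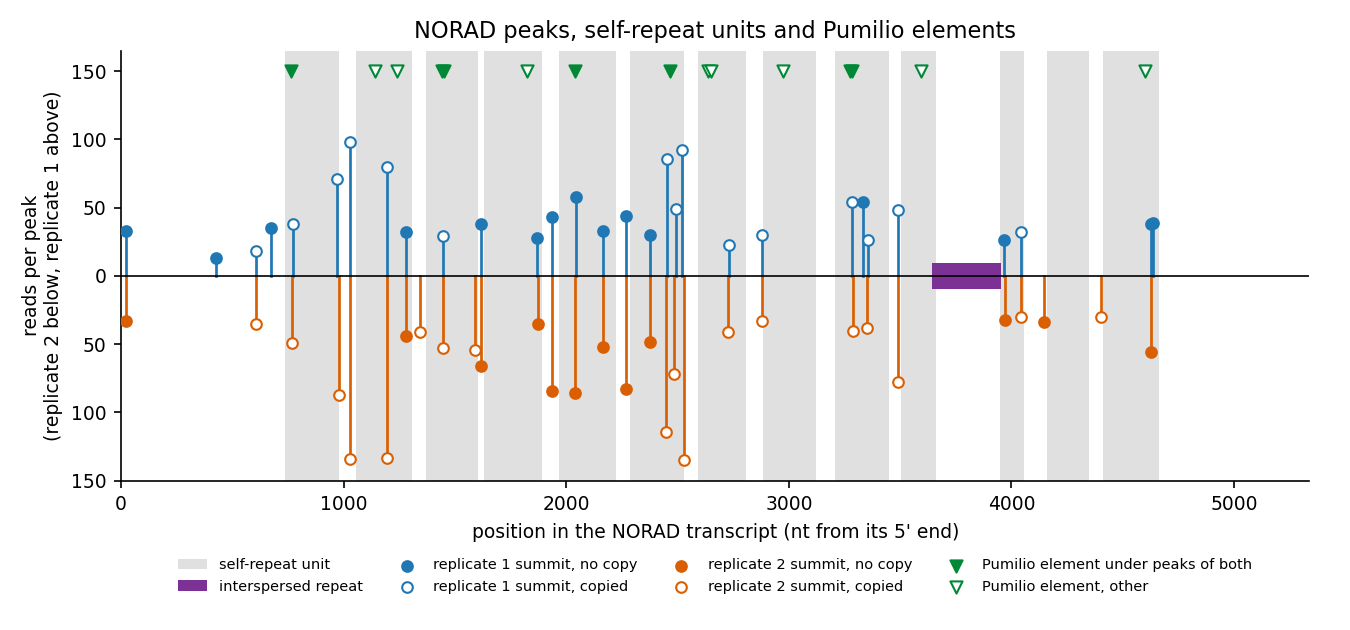
Reads per NORAD peak against the summit's position in the transcript in nt, with replicate 1 above the axis and replicate 2 below. Grey bands are the 13 self-repeat units, the bar is the interspersed repeat, triangles are the 15 Pumilio elements (7 filled where peaks of both libraries cover them), and open circles are summits whose 31 nt also occur in another gene's transcripts. Peaks run from position 22 to 4634, and 3 of the units, as drawn from the 300 nt seed, carry no summit.

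NORAD has near-identical copies, which limits every NORAD value. Its sequence was matched to all GENCODE 29 transcripts, and 10 other genes shared at least 500 bases with it outside the interspersed repeat at 80% identity or more. OVCH1-AS1 on chromosome 12 matched 94.0% of NORAD at 96.8% identity and had 642 and 938 peak reads. HCG11 on chromosome 6 matched 94.2% at 93.7% identity and had 142 and 219. AC005082.1 on chromosome 7 had 42 and 65, and LINC02228 had 11 and 32. LINC02583 had 0 and 4 reads. These numbers count only peaks whose summit lay in the part that matches NORAD. No such peak was counted on the other 5 in either library. Among them LINC02211 matches in antisense, and its peaks were left out of the count. Of the NORAD peaks, 15 of 30 in replicate 1 and 12 of 30 in replicate 2 had 31 nt around their summit that occur in no transcript of another gene. These peaks held 41.3% and 35.3% of the NORAD reads. For MALAT1, NEAT1, TUG1 and OIP5-AS1 the share was 100%, setting aside genes annotated over the same locus.

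With those peaks alone, NORAD had 102 and 122 reads per kb, and only the Pumilio element at 2039 remained under peaks of both libraries. They lack only an exact match in annotated transcripts, and the genome sequence was not searched. Peaks of the copies lay at some of the same positions. Within 15 nt of the summit over the element at 2039, HCG11 had 14 and 33 reads, and OVCH1-AS1 had 27 in replicate 2. Of the NORAD peaks with no exact copy of their summit sequence, 89.2% on average were found in both libraries. All peaks in the 3 strongest NORAD regions had copied summits. At 15 positions in replicate 1 and 18 in replicate 2, a peak of OVCH1-AS1 lay within 15 nt of the matching NORAD summit, and log2 reads of the paired peaks correlated with r = 0.71 and 0.80 (Spearman rho 0.50 and 0.80, given as a description, since the loci share sequence and perhaps reads). For HCG11, with 7 and 10 positions, r was -0.15 and -0.07. Whether the same reads were counted at several of these loci was not tested, as the lists hold no reads.

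**Figure D2:**
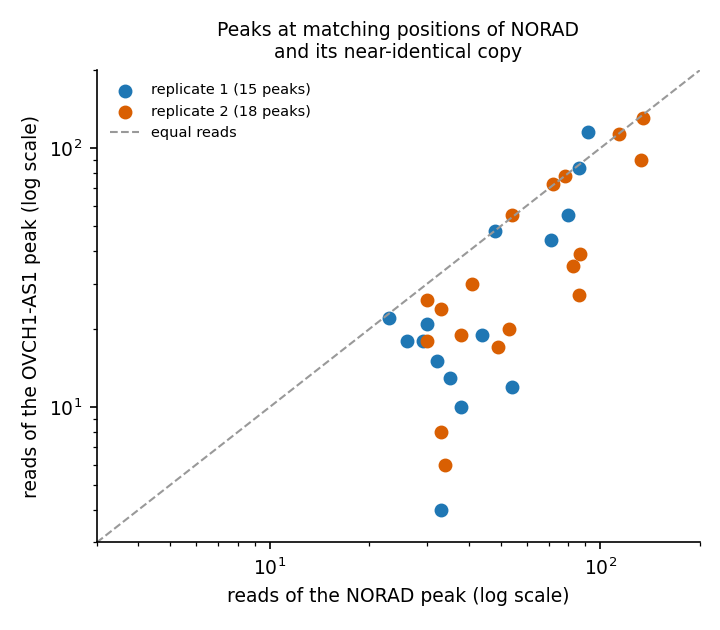
Reads of OVCH1-AS1 peaks against reads of NORAD peaks at matching positions, both axes on a log scale, with 15 pairs in replicate 1 and 18 in replicate 2. The dashed line marks equal reads. Most pairs lie under the line, and the strongest pairs lie near it.

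OIP5-AS1 (ENSG00000247556, chr15:41283990-41309737, plus strand) gave 16 peaks in each library, with 100 and 121 reads, and its longest transcript has 8829 nt in 4 exons. All 16 in each library also lay within the span of AC087721.2, a protein-coding gene annotated on the same strand (chr15:41284013-41380743). They were taken as OIP5-AS1 by the identifier in the peak name. The strongest regions of OIP5-AS1 follow. Its 3 strongest regions are shown, and the first window holds the site for miR-92a-3p in capitals (GUGCAAU, opposite bases 2 to 8 of the microRNA).
OIP5-AS1 summit 2798: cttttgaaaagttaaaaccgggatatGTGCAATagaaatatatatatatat
OIP5-AS1 summit 4396: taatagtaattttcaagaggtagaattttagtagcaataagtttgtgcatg
OIP5-AS1 summit 2946: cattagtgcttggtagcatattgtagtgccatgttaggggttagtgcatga
The first region, chr15:41300485-41300538, held 17 and 24 reads. The second, chr15:41302086-41302164, held 17 and 16. The third, chr15:41300577-41300691, held 9 and 18 in its strongest peak. The OIP5-AS1 peaks were weak beside those of NORAD, with a median of 5 reads in each library and 3 of 16 at p of 1e-05 or less in each.

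The region at summit 2946 also covered the seed match of the paired miR-7 site, which is shown against the mature microRNA from RefSeq (GRCh38.p14), whose capitals mark the seed, bases 2 to 8. In the RNA stretches, capitals mark bases paired with the microRNA in the script's alignment, Watson-Crick pairs only.
miR-7-5p: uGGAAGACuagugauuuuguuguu
OIP5-AS1 2887: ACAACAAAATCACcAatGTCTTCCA
OIP5-AS1 724: ACttcagggtttaAAaAAAATGTCTTCCA
OIP5-AS1 8167: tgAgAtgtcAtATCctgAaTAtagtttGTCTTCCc
The site at 2887 (stretch chr15:41300575-41300599) paired 22 of 24 bases. The 7 nt opposite the seed lay wholly under peaks of 9 and 18 reads, which start at chr15 positions 41300577 and 41300583 and so leave the 5′ end of the paired stretch uncovered. The sites at 724 and 8167 paired 17 and 16 bases and had no peak in either library. OIP5-AS1 thus had 1 of 3 miR-7 sites and its 1 miR-92a site under peaks of both libraries. Its 1 site each for miR-17 and let-7a had none. Peaks of both libraries covered 3.26% of the longest transcript, so counts of 1 to 3 sites carry little precision.

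MALAT1 (ENSG00000251562, chr11:65497688-65506516, plus strand) had 38 peaks and 1096 reads in replicate 1, and 29 peaks and 821 reads in replicate 2, or 124 and 93.0 reads per kb. It stood 7th and 9th among the 385 lncRNA genes. Of its peaks, 76.3% and 89.7% were found in both libraries, and 78.9% and 79.3% had p of 1e-05 or less. Its 3 strongest regions, printed because they lie close together, hold no Pumilio element or searched microRNA site around the summit.
MALAT1 summit 2719: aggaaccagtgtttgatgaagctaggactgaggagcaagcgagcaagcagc
MALAT1 summit 2807: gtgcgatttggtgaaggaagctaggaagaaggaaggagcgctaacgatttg
MALAT1 summit 2310: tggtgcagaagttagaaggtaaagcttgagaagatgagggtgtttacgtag
They held 76 and 85 reads at chr11:65500432-65500524, 68 and 63 at chr11:65500546-65500597, and 69 and 60 at chr11:65500050-65500110. The first MALAT1 summit lay at position 1504 in both libraries, so the first part of the transcript had no peak. With the transcript cut into 5 equal parts, the second part carried 49.0% and 51.9% of the reads. No peak lay over the annotated 57 nt small RNA at chr11:65506117-65506173, near the 3′ end, where a tRNA-like RNA is cut from MALAT1.

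NEAT1 (ENSG00000245532, chr11:65422774-65445540, plus strand) had 28 peaks and 267 reads, and 19 peaks and 235 reads. It is made as a short form and as a long form that builds the paraspeckle, and both start at the same site. The part shared with the short forms, the first 3716 nt (16.3% of the length), carried 224 of the reads in replicate 1 (83.9%) and 221 in replicate 2 (94.0%). This was 60.3 and 59.5 reads per kb, against 2.26 and 0.736 over the 19027 nt found only in the long form. The strongest peaks of the long-only part held 9 and 4 reads. The 3 strongest regions all lie in the shared part, with no Pumilio element or searched microRNA site around the summit.
NEAT1 summit 3563: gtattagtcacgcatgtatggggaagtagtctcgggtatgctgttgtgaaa
NEAT1 summit 990: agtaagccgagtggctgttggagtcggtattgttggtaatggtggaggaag
NEAT1 summit 1952: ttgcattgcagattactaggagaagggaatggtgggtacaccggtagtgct
Their strongest peaks held 31 and 34 reads at chr11:65426298-65426388, 28 and 21 at chr11:65423751-65423811, and 16 and 25 at chr11:65424683-65424786. Of the NEAT1 peaks, 50% and 68.4% were found in both libraries. Within the shared part 12 of 18 and 11 of 15 were, and within the long-only part 2 of 10 and 2 of 4. No peak lay over MIR612, a microRNA gene inside NEAT1.

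TUG1 (ENSG00000253352, chr22:30969245-30979395, plus strand) had 15 peaks and 109 reads in replicate 1, and 21 peaks and 140 reads in replicate 2, or 10.7 and 13.8 per kb. Of its peaks, 8 of 15 (53.3%) and 8 of 21 (38.1%) were found in both libraries, below the values over all peaks. The mean of these shares was the lowest of the 5, although in replicate 1 NEAT1 was lower. Only 2 and 1 of them reached p of 1e-05. The first of 5 equal parts of its longest transcript carried no reads in either library. Its strongest regions were as follows, again with no such element around the summit.
TUG1 summit 2095: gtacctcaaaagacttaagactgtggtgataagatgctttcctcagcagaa
TUG1 summit 5487: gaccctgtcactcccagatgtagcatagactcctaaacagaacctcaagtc
TUG1 summit 1517: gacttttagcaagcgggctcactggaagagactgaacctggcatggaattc
The first, chr22:30971288-30971409, held 10 and 21 reads and overlapped the annotated RNA entry RF01883. The second, chr22:30977338-30977421, held 16 and 9, and the third, chr22:30970757-30970820, held 10 and 8. The region with the strongest peak differed between the libraries.

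**Figure D3:**
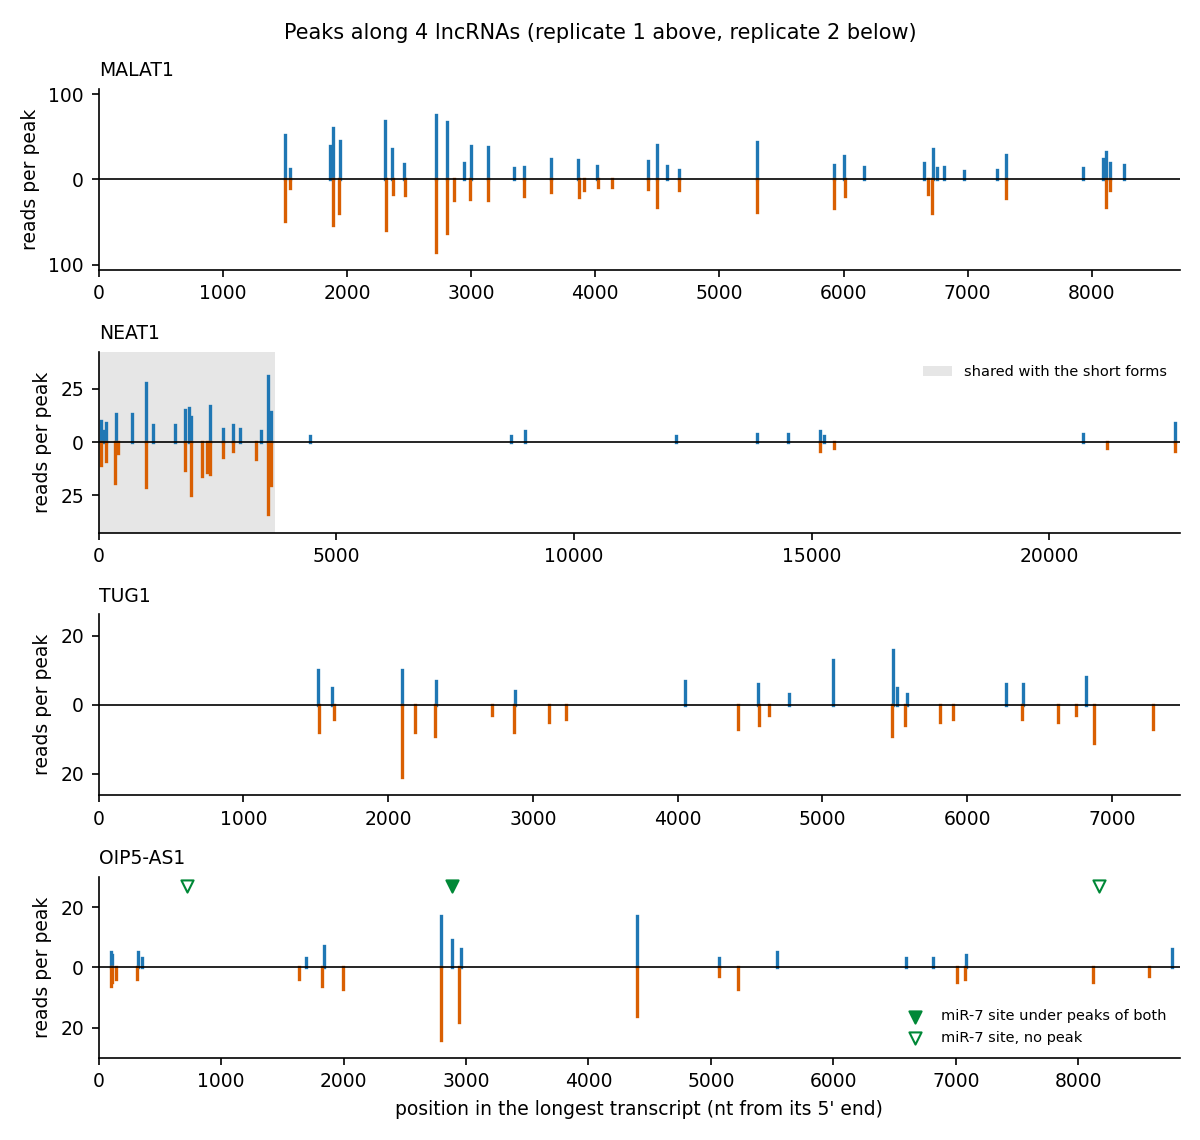
Reads per peak against summit position in nt along the longest transcript of MALAT1, NEAT1, TUG1 and OIP5-AS1, replicate 1 above and replicate 2 below, each panel with its own scale. The grey band is the NEAT1 part shared with the short forms, and triangles are the 3 miR-7 sites of OIP5-AS1. NEAT1 reads lie mostly inside the band, MALAT1 starts at position 1504, and the filled triangle is the site with peaks in both libraries.

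The next comparison set the cytoplasmic NORAD and OIP5-AS1 beside the nuclear MALAT1 and NEAT1. In mean reads per kb of exon (± SD, n = 2) NORAD had 297 ± 70.5, MALAT1 109 ± 22.0, TUG1 12.3 ± 2.16, NEAT1 11.02 ± 0.994 and OIP5-AS1 8.72 ± 1.17. The order did not follow the compartment, since the nuclear MALAT1 was 15.7 and 9.74 times OIP5-AS1 in the 2 libraries. NORAD was 1.99 and 3.73 times MALAT1, and the libraries of NORAD and MALAT1 did not overlap. TUG1, NEAT1 and OIP5-AS1 followed each other closely. TUG1 and NEAT1 overlapped, and the 2 NEAT1 values lay just above those of OIP5-AS1. That order rests on the exon length used, since per kb of its longest transcript OIP5-AS1 had 11.3 and 13.7. The sum of NORAD and OIP5-AS1 over the sum of MALAT1 and NEAT1 was 1.88 in replicate 1 and 3.45 in replicate 2. With NORAD peaks whose summit has no exact copy in annotated transcripts, that ratio was 0.808 and 1.28. NORAD was then 0.821 and 1.32 times MALAT1, so NORAD was no longer above MALAT1 in both libraries. Restricting NEAT1 to the part shared with its short forms gave a mean ratio of 1.86. With 2 libraries in 1 group no test was possible.

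NORAD took 0.0831% of the peak reads of replicate 1 and 0.111% of those of replicate 2, a log2 change of 0.42. MALAT1 took 0.0691% and 0.0493%, a log2 change of -0.49. Over 139 lncRNAs with at least 50 reads the median log2 change was 0.23, with 90% of genes between -1.05 and 1.49, so both lie inside that spread. The summed share of the nuclear RNA markers moved the same way as MALAT1, from 0.507% to 0.388%, and 8 of the 12 had a lower share in replicate 2 with 0 higher. The peaks of protein-coding genes with an intronic summit went from 10.4% to 8.89%. The part of nuclear RNA content in the MALAT1 difference was not tested. The cytoplasmic markers took 0.603% and 0.637%, with 9 lower and 4 higher in replicate 2, and RN7SL2 had 3321 and 5299 reads.

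**Figure D4:**
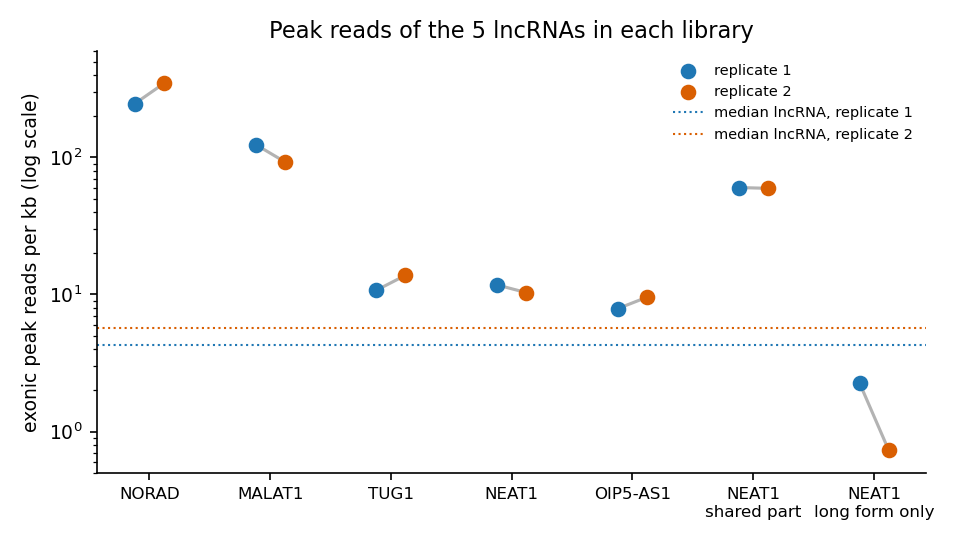
Exonic peak reads per kb, on a log scale, of each lncRNA in replicate 1 and replicate 2, with NEAT1 also divided into the part shared with the short forms and the part found only in the long form. Dotted lines are the medians over 385 lncRNA genes (4.25 and 5.65). NORAD and MALAT1 stand above the other 3, and the shared part of NEAT1 stands near 60.

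Base composition, which played no part in choosing the genes, was shared by most of the 5. Bases under peaks of both libraries held less C and more G than the rest of the same transcript. In NORAD C was 8.90% against 18.8% and G 31.1% against 23.0%. In MALAT1 C was 8.53% against 17.3% and G 34.6% against 22.8%. NEAT1 had the highest G, 40.4% against 23.3%, with C at 10.2% against 20.6%. OIP5-AS1 had C at 12.8% against 18.5%, with G at 22.9% against 19.9%. TUG1 showed the G difference, 29.1% against 21.3%, and little in C, 20.1% against 21.7%. The direction was not particular to the 5: over other lncRNA genes C was 18.6% against 23.7% and G 32.4% against 24.3%, and of 273 such genes 203 had lower C and 239 higher G under the peaks. NORAD, MALAT1, NEAT1 and OIP5-AS1 had less C than the pooled other lncRNAs under the peaks and also elsewhere, given without a test. The NORAD bases include peaks with copied summits.

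**Figure D5:**
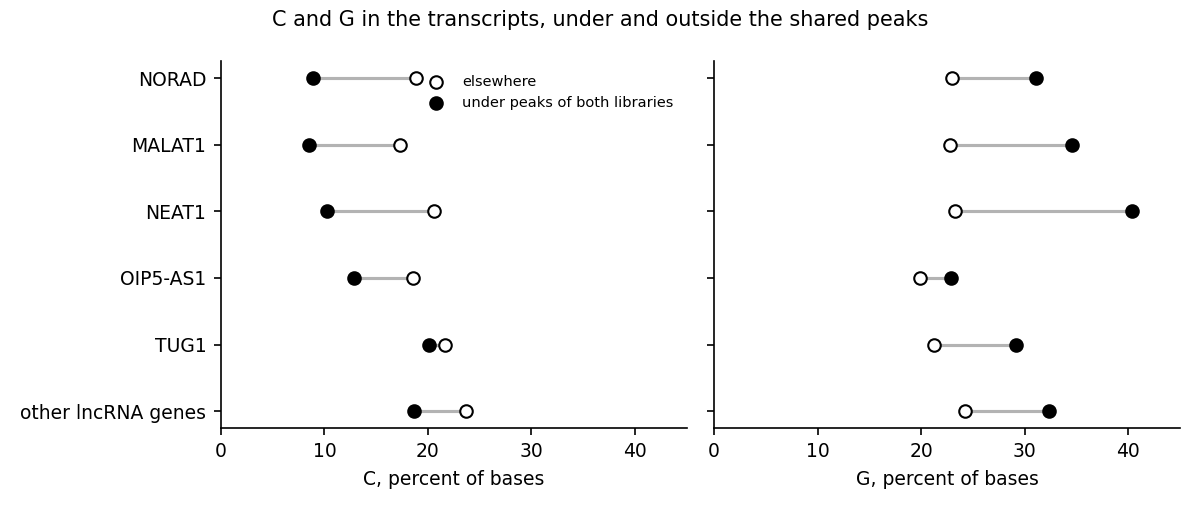
Percent of C (left) and G (right) among transcript bases under peaks of both libraries (filled) and elsewhere (open) for each lncRNA and for the pooled other lncRNA genes. In every row the filled point has less C and more G than the open one.

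The messenger RNAs of proteins known to bind these lncRNAs were also read out as peaks. All 12 genes of that list had exonic peak reads in both libraries, with a median of 66.8 and 68.8 reads per kb. Listed peaks fell on 18035 genes in replicate 1 and 18089 in replicate 2. No share or median over all protein-coding genes was computed, so these values do not set the list apart. NONO, a core paraspeckle protein, was highest with 177 and 184, followed by ALYREF, an mRNA export factor found with NORAD, with 103 and 133. These are levels of the mRNAs in the peak lists, not of the proteins.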

How the data were processed

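Peak lists of 2 libraries in 1 group were used. According to the deposited files' names, the authors called peaks per library with CLIPper after filtering alignments by score, mismatches and number of loci. Which CLIPper version and annotation was used is not given in the sources used here. Per the submitters' processing notes the build was GRCh38 and the tools included STAR 2.7.11, UMI-tools 1.1.4 and cutadapt 4.2, their roles unstated. The deposited score is a p-value per peak, with no adjustment stated, and each deposited peak name carries a whole number of reads, not normalised. The total of mapped reads is unknown, so intervals (exact binomial, 95%) cover counting error only.

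Gene models and transcripts came from GENCODE 29 (19811 of 20048 identifiers matched), microRNAs from RefSeq (GRCh38.p14; all 7 searched were found). Coordinates are 1-based. Reads per kb are exonic peak reads over the merged exon length. Repeat units came from blastn (BLAST 2.17.0) seed windows and iterated nhmmer (HMMER 3.4, E at most 0.001). Copies came from megablast, with a summit sequence of 31 nt. Elements were searched on the transcript strand of the longest transcript, and overlapping matches were kept. Scripts (Python 3.11.15, pandas 2.3.3) were tested on simulated data. With 1 group there was no test. Named regions are the 3 strongest of each gene found in both libraries. Named list genes are the 2 with most reads per kb, as for VIM and IGF2BP1. Some list genes are not reported here by name. Members and lists were chosen with earlier results of these data known. Alternatives covered p, overlap, exon length, seed length, element distance and each library alone. The restrictions to NORAD summits without an exact copy and to the NEAT1 part shared with its short forms were chosen after seeing the data.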

Additional observations from a re-analysis of the deposited data

How the results depend on the processing

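No paired analysis was possible because both libraries belong to a single group. As a mean, the ratio of the cytoplasmic to the nuclear pair stayed above 1 under the alternatives. The other values were reads per kb, shares and counts, which cannot change sign. The cause of the moves below was not tested. Mean reads per kb of OIP5-AS1, NEAT1 and TUG1 became 3.98, 8.43 and 2.46 with peaks at p of 1e-05 or less, and 6.43, 8.32 and 6.55 with peaks found in both libraries. By the longest transcript OIP5-AS1 had 12.5, NEAT1 11.04 and TUG1 16.7. The mean of OIP5-AS1 then stood above that of NEAT1, though not in replicate 1 (11.3 against 11.7). Each library alone gave 247 to 347 for NORAD and 1.88 to 3.45 for the ratio of the cytoplasmic to the nuclear pair. With NORAD summits that have no exact copy, chosen after seeing the data, NORAD had 112 reads per kb and the ratio was 1.04 (0.808 in replicate 1, below 1). Under that restriction 1 Pumilio element was covered instead of 7, and 58.1% of the reads lay in units instead of 67.2%. NEAT1 over the part shared with its short forms, also chosen after seeing the data, had 59.9. The mean percent of peaks found in both libraries, when each peak had to overlap by at least 50%, was 80 for NORAD, 43.8 for OIP5-AS1, 69.9 for MALAT1 and 17.1 for TUG1. With p of 1e-05 or less it was 100% for OIP5-AS1 (3 peaks per library), 82.6% for NEAT1 and 0% for TUG1 (2 and 1 peaks). Units from seeds of 200 and 400 nt held 37.2% and 90.3% of the NORAD reads.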

Other observations

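The lncRNA genes closest to NORAD in mean log2 reads per kb were AC023509.1 (260 and 394), AC016876.2 (304 and 347) and AC239798.4 (243 and 254). Those closest to MALAT1 were OVCH1-AS1 (94.3 and 138), SNHG16 (90.3 and 74.4), a host gene of small nucleolar RNAs, and AL049796.1 (108 and 60.0). OVCH1-AS1 is the near-identical copy of NORAD described above. After NORAD, the lncRNA genes with the most Pumilio elements under peaks of both libraries were OVCH1-AS1 with 4 of 16, HCG11 with 2 of 16 and AC005082.1 with 2 of 4, all of them copies of NORAD. Another 12 genes tied at 1 covered element.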
